A study of Homo sapiens with 54 samples.

Results

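PC3 and MDA-MB-231 cells that had survived cisplatin were compared by bulk ATAC-seq 10 days after the drug was taken away. PC3 is a human prostate cancer line and MDA-MB-231 a human breast cancer line, both long-established cultures. The comparison is defined by the sample labels, though it was chosen with earlier results of these data known. It takes the 3 deposited peak lists of PC3 survivors and the 3 of MDA-MB-231 survivors at day 10. These are 6 of the 18 lists and stand for 18 of the 54 samples. Each list is 1 biological replicate, which the submitters had split into 3 experimental replicates before tagmentation. The 3 untreated PC3 lists and the 3 untreated MDA-MB-231 lists served to ask whether the lines stood nearer together or farther apart among the survivors than before treatment. The lists of day 1 were not compared themselves. They entered the merging of regions, the choice of genes tested, the mean total used for scaling, the arm boundaries and the shared estimate of spread. The labels give no dose or length of the cisplatin treatment. The series title speaks of polyploid cells, but no sample carries a ploidy. Each line is 1 culture lineage, so a difference between PC3 and MDA-MB-231 is a difference between these lines and not between prostate and breast cancer, and nothing in the labels says whether the day 10 cells came from separate treatments.

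ATAC-seq uses a transposase that inserts sequencing adapters where DNA is not packed into nucleosomes, so a peak marks open chromatin at a promoter, an enhancer or another bound site. Cisplatin binds purines and links bases within and between DNA strands, which blocks replication and transcription. Sites open in every cell type tend to be CpG-rich promoters, whereas sites away from promoters carry most of what differs between cell types. AP-1, the dimer of FOS and JUN proteins, binds many such distal sites in cells under stress. In bulk samples a site open in fewer cells and a site less open in each cell cannot be told apart, and the peak lists hold no read counts.

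Promoter windows in which the 6 day 10 lists differed from the controls, or from each other, are shown first, since they are the sites where the lines can be read base by base. A window ran from 250 bases before to 50 after a transcription start of the RefSeq table (GRCh38.p14), and the 250 bases before the start are printed, 5′ to 3′ on the gene's strand. For 5 of the 7 windows shown, capitals mark the match to the AP-1 motif TGANTCA. The 5 were picked for that match, which most windows of their sets lack, and come from 3 patterns, which are peaks in every day 10 list but no control list (CXCL11), peaks new in the survivors of 1 line only (CASP14, PAEP), and peaks that 1 line had before treatment and both had at day 10 (IL23A, AIM2). CXCL11, an interferon-induced chemokine, lies on the minus strand (chr4:76036071-76036320), and CASP14, a caspase of the skin barrier, on the plus strand (chr19:15049230-15049479). PAEP, the secreted protein glycodelin, lies on the plus strand (chr9:135561506-135561755). IL23A, a subunit of interleukin 23, lies on the plus strand (chr12:56338634-56338883), and AIM2, a sensor of cytosolic DNA, on the minus strand (chr1:159076767-159077016).
CXCL11: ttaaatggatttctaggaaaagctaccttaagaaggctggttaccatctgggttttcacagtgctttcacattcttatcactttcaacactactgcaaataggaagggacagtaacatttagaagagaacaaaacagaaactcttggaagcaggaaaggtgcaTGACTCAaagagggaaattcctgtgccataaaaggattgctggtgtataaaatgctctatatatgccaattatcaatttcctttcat
CASP14: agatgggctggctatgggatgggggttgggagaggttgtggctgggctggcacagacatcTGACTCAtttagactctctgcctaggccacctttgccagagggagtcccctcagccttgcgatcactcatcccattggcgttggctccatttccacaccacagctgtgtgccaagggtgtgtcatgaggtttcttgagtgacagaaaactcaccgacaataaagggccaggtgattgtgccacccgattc
PAEP: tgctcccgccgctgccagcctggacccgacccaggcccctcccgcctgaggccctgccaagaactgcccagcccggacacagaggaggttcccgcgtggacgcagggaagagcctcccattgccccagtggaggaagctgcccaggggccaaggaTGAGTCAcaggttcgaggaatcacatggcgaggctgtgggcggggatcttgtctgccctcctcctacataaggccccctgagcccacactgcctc
IL23A: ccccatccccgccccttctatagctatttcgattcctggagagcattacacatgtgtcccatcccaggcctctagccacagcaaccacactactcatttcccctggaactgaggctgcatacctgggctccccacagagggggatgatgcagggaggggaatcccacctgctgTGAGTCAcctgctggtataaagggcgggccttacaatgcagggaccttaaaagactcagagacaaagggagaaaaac
AIM2: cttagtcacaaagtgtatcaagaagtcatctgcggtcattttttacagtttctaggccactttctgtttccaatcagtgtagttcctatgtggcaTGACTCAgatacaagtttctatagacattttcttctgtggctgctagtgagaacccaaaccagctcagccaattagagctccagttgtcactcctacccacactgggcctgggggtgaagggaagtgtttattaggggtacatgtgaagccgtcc

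Peaks covered 213, 211 and 207 of the printed CXCL11 bases in the PC3 day 10 lists, against 222, 232 and 209 in the MDA-MB-231 day 10 lists, and 0 in all 6 control lists. The AP-1 match lay 87 bases before the start and was covered in all 6 day 10 lists. At CASP14 all 250 bases were covered in the 3 PC3 day 10 lists and 0 in the 3 MDA-MB-231 day 10 lists. At PAEP the order was turned round, with 0 bases in the 3 PC3 day 10 lists and 201, 189 and 220 bases in the MDA-MB-231 day 10 lists. Neither promoter carried a control peak in either line. IL23A was covered over all 250 bases in the 6 day 10 lists and in the 3 PC3 control lists, but over 0 bases in the 3 MDA-MB-231 control lists. AIM2 had 189, 250 and 250 covered bases in the PC3 day 10 lists and 250 in each MDA-MB-231 day 10 list, against 0 in the 3 PC3 control lists and 250 in each MDA-MB-231 control list. The IL23A promoter thus had a peak at day 10 that untreated MDA-MB-231 lacked, and the AIM2 promoter one that untreated PC3 lacked. The AP-1 match is 77 bases before the start of IL23A and 155 before that of AIM2. It stands 190 bases before the start of CASP14 and 95 before that of PAEP. A match to a motif is a description of the letters and does not show that the factor was bound.

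The opposite kind of promoter, with peaks in all 6 control lists and all 3 MDA-MB-231 day 10 lists but no PC3 day 10 list, is shown by BMI1, a Polycomb protein (plus strand, chr10:22320849-22321098), and NRAS, a RAS GTPase of growth factor signalling (minus strand, chr1:114716772-114717021). Capitals mark CpG dinucleotides, of which these stretches hold 35 and 20.
BMI1: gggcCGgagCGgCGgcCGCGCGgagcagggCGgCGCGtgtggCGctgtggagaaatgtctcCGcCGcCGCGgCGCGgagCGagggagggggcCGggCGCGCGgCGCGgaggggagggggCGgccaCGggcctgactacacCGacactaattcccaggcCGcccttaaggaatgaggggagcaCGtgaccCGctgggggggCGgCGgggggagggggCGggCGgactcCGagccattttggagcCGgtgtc
NRAS: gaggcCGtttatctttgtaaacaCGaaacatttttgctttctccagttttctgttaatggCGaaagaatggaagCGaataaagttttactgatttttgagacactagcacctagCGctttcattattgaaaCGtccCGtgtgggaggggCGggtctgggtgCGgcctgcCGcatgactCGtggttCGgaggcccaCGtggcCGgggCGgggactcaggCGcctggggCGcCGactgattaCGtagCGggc

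Covered bases at BMI1 were 0 in the 3 PC3 day 10 lists and 250 in each MDA-MB-231 day 10 list, against 216, 250 and 250 in the PC3 control lists and 250 in each MDA-MB-231 control list. NRAS was likewise at 0 in the 3 PC3 day 10 lists and at 250 in each MDA-MB-231 day 10 list, with 173, 250 and 171 in the PC3 control lists and 250 in each MDA-MB-231 control list. These calls are of presence in a list of peaks, and a promoter whose signal drops below the caller's threshold also shows as 0.

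The labelled lines were checked against a deletion known in MDA-MB-231. Covered length around CDKN2A, which encodes the cell cycle inhibitors p16 and p14ARF (chr9:21967752-21995324), was 2138, 1396 and 1667 bp in the PC3 day 10 lists and 0 bp in all 3 MDA-MB-231 day 10 lists, and it was 0 bp in the 3 MDA-MB-231 control lists. CDKN2B and MTAP, beside it, were also at 0 bp in all 6 MDA-MB-231 lists and had peaks in every PC3 day 10 list. The stretch without any MDA-MB-231 peak ran over 24 protein-coding genes (chr9:20999509-24545897), including the type I interferon cluster, where PC3 survivors had 18.7 ± 1.91 kb of peaks (SD, n = 3). PC3 had its own empty stretch of 10 genes at chr17:42113111-42423256, with KAT2A, RAB5C, STAT5B, STAT5A, STAT3 and CAVIN1 among them, where MDA-MB-231 survivors had 44.5 ± 3.93 kb (SD, n = 3). STAT3, the transcription factor downstream of interleukin 6 receptors, had no peak in any PC3 list of either time, against 8.90, 8.36 and 8.80 kb in the MDA-MB-231 day 10 lists. A second empty stretch of PC3, chr2:176151550-176190907, held HOXD4, HOXD3 and HOXD1, and MDA-MB-231 survivors had 4.09 ± 0.50 kb there (SD, n = 3). A stretch with no peak in 1 line shows that no site was called there, and whether the DNA is lost, cannot be mapped or is closed was not tested. Blood cell markers summed to 37.9 to 49.0 kb in the PC3 day 10 lists and 51.6 to 55.4 kb in the MDA-MB-231 day 10 lists, and endothelial markers to 63.5 to 71.3 kb in the PC3 day 10 lists and 60.8 to 64.4 kb in the MDA-MB-231 day 10 lists.

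PC3 survivors carried more peaks than MDA-MB-231 survivors, and a larger part of them far from genes. The PC3 day 10 lists held 165535, 150913 and 133898 peaks, against 121154, 103830 and 126462 in the MDA-MB-231 day 10 lists, so the lists of the lines did not overlap. Peaks covered 69.8, 80.9 and 82.3 Mb in the PC3 day 10 lists and 58.4, 59.7 and 71.1 Mb in the MDA-MB-231 day 10 lists, where the groups overlapped. The peak number was higher in PC3 by 0.36 on the log2 scale at day 10 and by 0.32 in control, each with an exact permutation p of 0.1, the smallest that 3 lists against 3 allow. The covered length was higher in PC3 by 0.30 at day 10 (exact permutation p = 0.2) and by 0.04 in control (p = 0.8). The change of the gap between day 10 and control had an exact permutation p of 0.91 for the peak number and 0.18 for the covered length. These came from 400 relabellings of day 10 and control within the lines, some of which swap the times in 1 line alone. Changes within each line thus enter these p-values, which do not measure the spread of the lists alone. Median peak width at day 10 was 320, 421 and 480 bp in PC3 and 333, 422 and 401 bp in MDA-MB-231, so that replicate 1 of each line had the narrowest peaks. Depth per list is unknown, and its part in these differences was not tested.

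Peaks that touched neither a gene body nor the 1 kb around a gene end made up 47.6, 48.0 and 46.5% of the PC3 day 10 lists and 43.3, 43.3 and 44.7% of the MDA-MB-231 day 10 lists. In control these intergenic peaks made up 44.9, 45.1 and 44.4% in PC3 and 38.9, 38.8 and 39.0% in MDA-MB-231, so each line had a higher intergenic share at day 10. PC3 exceeded MDA-MB-231 by 3.59 percentage points at day 10 and by 5.86 in control, with an exact permutation p of 0.1 for each. The change of the gap had an exact permutation p of 0.415. Its relabellings also swap the times in 1 line alone, so the rise of 2.57 points in PC3 and 4.84 in MDA-MB-231 enters it. That p therefore cannot tell whether the gap changed beyond the spread of the lists. Gene-poor stretches of the genome, megabase bins with no or a single protein-coding gene, held 8.50, 8.64 and 7.53% of the covered length in the PC3 day 10 lists and 4.53, 4.64 and 5.25% in the MDA-MB-231 day 10 lists. Peaks at gene ends were 11.2, 11.1 and 12.9% in PC3 and 14.4, 15.0 and 12.9% in MDA-MB-231 at day 10. The gene-end shares overlapped only at replicate 3 of each line, and PC3 was lower by 2.35 points (exact permutation p = 0.2). The share in promoter windows averaged 6.59 ± 0.60% in PC3 survivors and 8.69 ± 0.82% in MDA-MB-231 survivors (SD, n = 3 each).

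**Figure D1:**
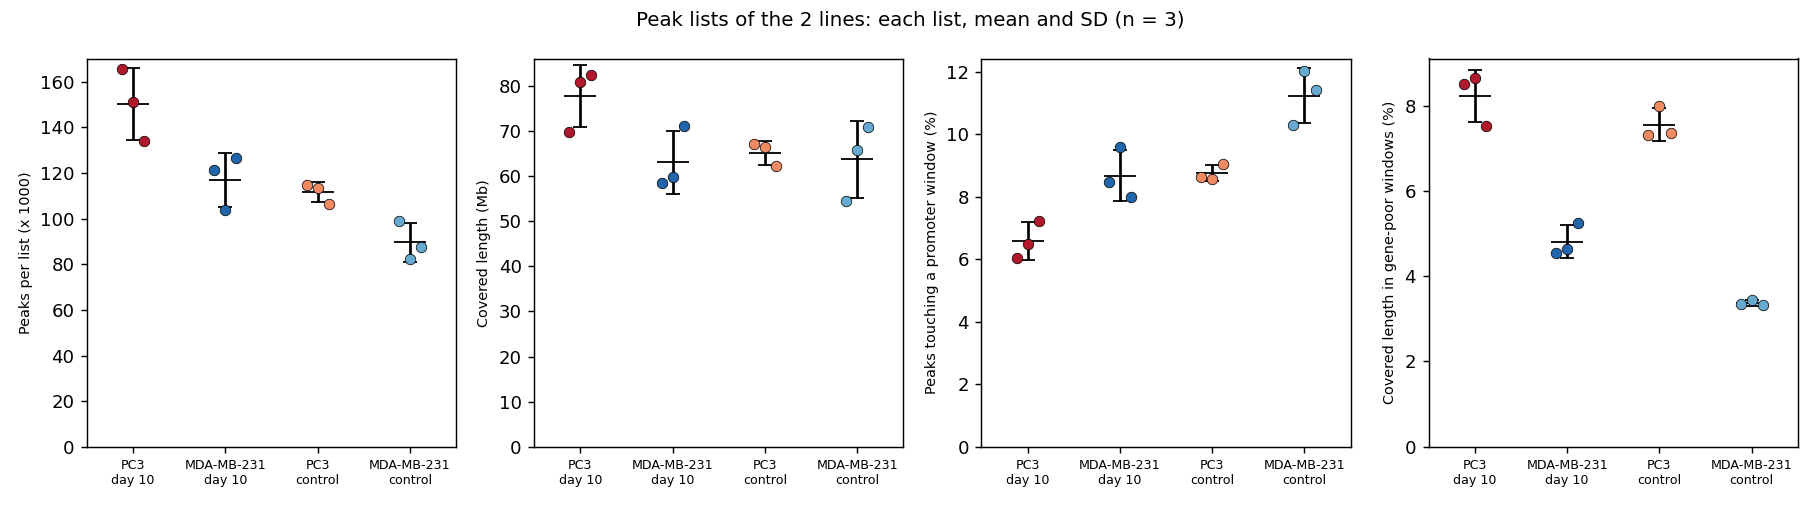
Measures of each peak list, with 1 point a list (3 a group), lines at the group mean and SD and the axes in the units given on each panel. The day 10 lists of PC3 stand above those of MDA-MB-231 in peak number and in the share of covered length in gene-poor windows and below them in the share of peaks in promoter windows, as do the control lists, while total covered length overlaps at day 10.

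In the share of the genome that the peaks of the lines have in common, the ranges at day 10 and in control overlapped. The Jaccard index, the length covered in both lists over the length covered in either, averaged 42.2% over the 9 pairs of a PC3 and an MDA-MB-231 list at day 10 (39.5 to 43.6%), against 43.6% in control (40.5 to 45.5%). The difference of -1.42 percentage points had an exact permutation p of 0.56 over 400 relabellings of day 10 and control within each line, whose smallest p is 0.005. Some relabellings swap the times in 1 line alone. The index averaged 43.8% for PC3 controls with MDA-MB-231 survivors and 37.2% for PC3 survivors with MDA-MB-231 controls. This p thus also reflects changes within each line and cannot tell whether the lines converged or diverged beyond the spread of the lists. Replicates of a group shared far more, at 68.4% in PC3 survivors, 74.8% in MDA-MB-231 survivors, 75.9% in PC3 controls and 74.0% in MDA-MB-231 controls. Survivors stood nearer to the controls of their own line, at 57.4% for PC3 and 63.2% for MDA-MB-231, than to the survivors of the other line. The shared part was uneven: of the length covered in a PC3 list 53.9% was also covered in an MDA-MB-231 list at day 10 and 60.1% in control, while of the length covered in MDA-MB-231 66.4% was also covered in PC3 at day 10 and 61.8% in control.

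At the level of genes the lines were compared in the same way, with relabellings that have the same limit. For each gene, the bases under peaks within its body or up to 10 kb away were summed, scaled so that all lists had equal totals and taken as log2 after adding 500 bp. Under all peaks, the root mean square difference between the lines over 16813 genes was 0.759 (log2) at day 10 and 0.833 in control. The change of -0.07 had an exact permutation p of 0.365. With only the 50000 peaks of highest area in each list the sign turned, at 0.970 for day 10 and 0.861 for control (exact permutation p = 0.145). The gaps of the genes at day 10 followed those in control, with r = 0.835 across genes, which are not independent replicates. With the gaps of each time centred on their median over genes, 81.0% of genes had the same sign at both times. The median absolute gap was 0.45 at day 10 and 0.43 in control.

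**Figure D2:**
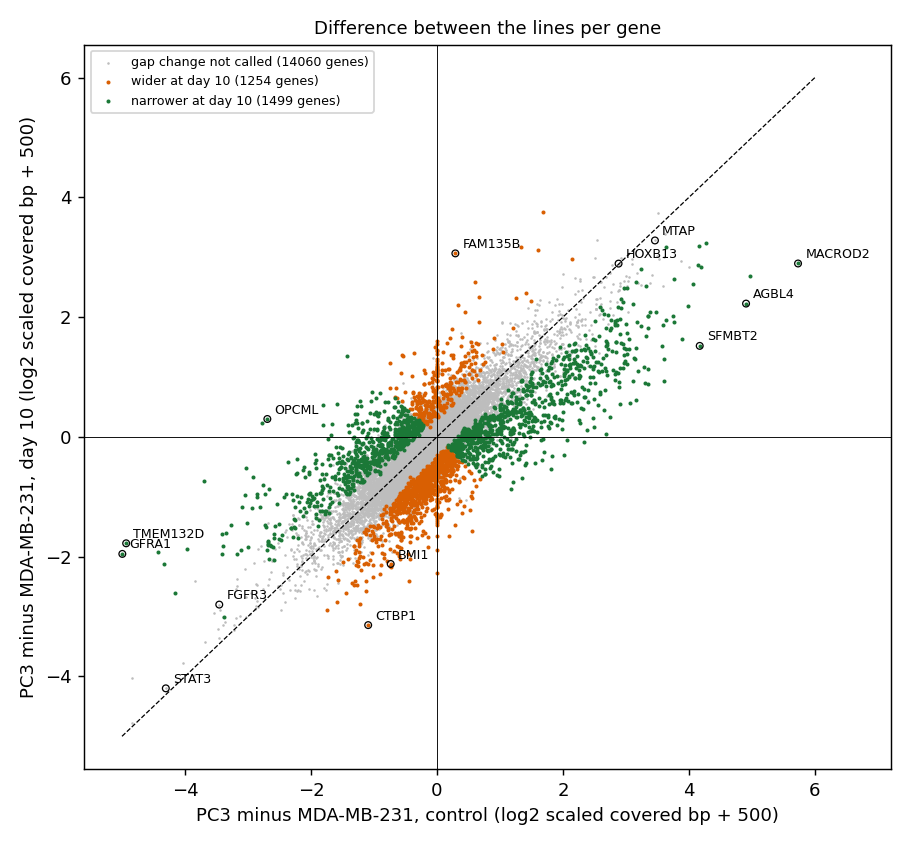
Log2 difference in scaled peak-covered length, PC3 minus MDA-MB-231, at day 10 and in control, with 1 point a gene (16813 genes). Most points lie along the diagonal (r = 0.835), and genes whose gap was called wider or narrower at day 10 are coloured.

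Merged over all 18 lists, the peaks formed 232138 regions, of which 200298 held a peak in at least 1 day 10 list of these lines. All 6 day 10 lists had a peak in 65591 of them (32.7%). PC3 survivors alone, in 3 of 3 lists against 0 of 3, had 35745 (17.8%), and MDA-MB-231 survivors alone had 15319 (7.65%). The controls had 30623 PC3-only regions (20.1%), 14804 MDA-MB-231-only regions (9.70%) and 52066 shared ones (34.1%) among 152614. With lists cut to equal length, the 50000 highest-area peaks of each, the day 10 numbers were 11482 for PC3 and 11509 for MDA-MB-231.

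The regions that told the lines apart before treatment were mostly not exchanged. Of the 30623 PC3-only control regions, 16662 (54.4%) were PC3-only again at day 10 and 4119 (13.5%) had peaks in all 6 day 10 lists. Of the 14804 MDA-MB-231-only control regions, 7014 (47.4%) were MDA-MB-231-only again and 2378 (16.1%) had peaks in all 6. Only 13 and 22 regions changed from one line to the other. Of the 52066 shared control regions 46731 (89.8%) were shared at day 10, whereas 194 were PC3-only and 418 MDA-MB-231-only by then. The regions that stayed PC3-only included the widest at PPIF, mitochondrial cyclophilin D, and at HOXA9 to HOXA11. Those that stayed MDA-MB-231-only included CIC, a repressor of RAS-responsive genes as well as the receptor tyrosine kinases FGFR3 and AXL.

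Part of the differences between the survivors had no counterpart in any control list. Of the PC3-only day 10 regions 11030 (30.9%) had no peak in any of the 6 control lists, and of the MDA-MB-231-only ones 4459 (29.1%), against 2673 (4.08%) of the regions shared by all 6 day 10 lists. The share over all day 10 regions is not given. Day 10 lists also held more peaks than controls, on average 150115 against 111646 in PC3 and 117149 against 89564 in MDA-MB-231. The new regions had median widths of 427, 351 and 480 bp in the same order, against 871 bp for all shared day 10 regions. These new regions were poor in gene ends, at 3.43% for PC3-only, 2.83% for MDA-MB-231-only and 4.34% for shared ones. Among all day 10 regions 9.32% lay within 1 kb of a gene end, and among all shared ones 18.7%. For PC3 the low share was not particular to new regions. It was 3.92% for all PC3-only day 10 regions and 3.49% for PC3-only control regions. For MDA-MB-231-only regions it was 7.40% at day 10 and 8.90% in control. The widest new PC3-only region with a known neighbour lay at ZCCHC24 (chr10:79416171-79420263, 4093 bp). The widest new MDA-MB-231-only region lay at MAPK8IP1, a scaffold of JNK signalling (chr11:45906121-45910119, 3999 bp). Among the new regions of all 6 survivor lists was one of 2762 bp near CSF2, the cytokine GM-CSF (chr5:132076179-132078940). Regions are unions over 18 lists, so their widths exceed those of single peaks.

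**Figure D3:**
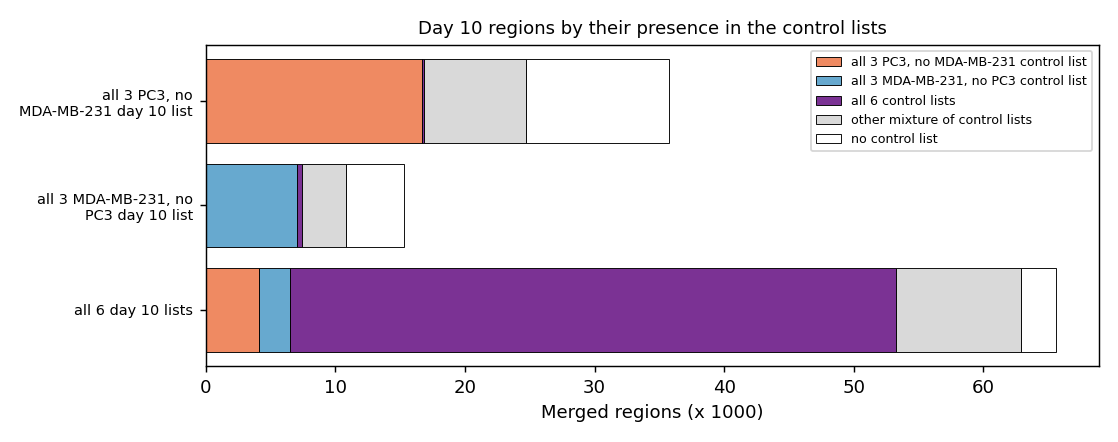
Merged regions (x axis) by their day 10 class (1 bar a class), divided by their presence in the control lists. Of the 35745 PC3-only day 10 regions 11030 had no control peak (white), as did 4459 of the 15319 MDA-MB-231-only ones and 2673 of the 65591 shared ones, most of which had peaks in all 6 control lists.

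Few promoter windows belonged to 1 line alone. Of 22131 windows, 520 (2.35%) had peaks in PC3 survivors only and 936 (4.23%) in MDA-MB-231 survivors only, while 11293 were shared by all 6 day 10 lists. In control the numbers were 497 PC3-only, 815 MDA-MB-231-only and 11930 shared. Line-specific at both times were 351 windows of 303 genes in PC3 and 557 windows of 484 genes in MDA-MB-231. Windows new in PC3 survivors only numbered 56, of 54 genes, with KLK2, a prostate kallikrein, GRIA1, a glutamate receptor subunit, and SLFN11, which blocks stressed replication forks, among them. Windows new in MDA-MB-231 survivors only numbered 32, with PGR, the progesterone receptor, CASR, the calcium-sensing receptor, and CCR2, a chemokine receptor. New in both lines were 15 windows of 12 genes, including CXCL11, TNFSF14, a TNF family ligand, and LIPA, the lysosomal acid lipase. Of these new windows 2 of 56, 4 of 32 and at most 2 of 15 were among the 50000 highest-area peaks in all 3 lists of the line, so they are mostly peaks of low area.

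More shared promoter windows had lost their peaks in PC3 survivors than in MDA-MB-231 survivors. Windows with peaks in all 6 control lists were MDA-MB-231-only at day 10 in 173 cases (155 genes) and PC3-only in 14. Besides BMI1 and NRAS, the 173 included EP300, a histone acetyltransferase, SMARCA2, a remodelling ATPase, XBP1, a factor of the unfolded protein response, and IRS1, an insulin receptor substrate. The median observed-to-expected CpG ratio of the 173 was 0.871, close to the 0.850 of all windows shared by the 6 control lists, and 0.738 over all windows. Their median GC content was higher, at 74.3% against 66.3% for the windows shared in control and 62.3% for all windows. The 14 PC3-only windows had 62.5%. Whether base composition bears on the lost peaks was not tested. With the 50000 highest-area peaks the split was 817 against 27, in the same direction. The reverse move, from 1 line in control to all 6 day 10 lists, took in 45 windows that PC3 had held alone and 27 that MDA-MB-231 had held alone. The 45 included ESR1, the oestrogen receptor, IL7R, IL23A, RSAD2, an interferon-induced antiviral enzyme, and WWTR1, the coactivator TAZ. The 27 included BST2, AIM2, NOD2 and GBP4, of innate immunity. Their median CpG ratios were 0.227 and 0.219.

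Letters matching AP-1 (TGANTCA, both strands) stood in 6.15% of all windows, and in 6 of the 15 windows new in both lines (40%). They stood in 8 of the 56 new PC3 windows (14.3%), 7 of the 32 new MDA-MB-231 windows (21.9%), 9 of the 45 (20%) and 5 of the 27 (18.5%). PC3-only windows already held them in control, in 53 of 497 (10.7%), and in 51 of all 520 at day 10 (9.81%). For MDA-MB-231-only windows the shares were 6.13% in control and 5.88% at day 10. The NRF1 motif stood in 7.40% of all windows and the ETS motif CCGGAAGT in 5.34%, both strands read, and neither stood in any window of the 3 new sets. The TATA box TATAAA, also read on both strands, stood in 9.46% of all windows, in 15 of the 56 new PC3 windows (26.8%), 11 of the 32 new MDA-MB-231 windows (34.4%) and 2 of the 15 windows new in both lines (13.3%). These sets are CpG-poor, and base composition was not held constant. Overlaps between matches of different motifs were not counted.

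Per gene, 3237 of 16813 genes (19.3%) had more covered length in PC3 survivors and 8185 (48.7%) less, by limma with Benjamini-Hochberg adjustment. The imbalance follows the scaling. Without scaling the split was 4623 higher against 4616 lower, and the median difference over all genes was -0.25 with scaling to total length, -0.01 without and 0.01 with median-of-ratios scaling. The day 10 counts of the gene lists below are therefore of genes called in the same direction under all 3 scalings, 19.3% higher and 27.3% lower over all genes. With scaling to total length, as for all counts of changed gaps unless stated, 3536 control genes (21.0%) were higher in PC3 and 7437 (44.2%) lower, and 2490 were higher and 6196 lower at both times. The day 10 call was the opposite of the control call in 64 genes that were higher and 85 that were lower in PC3 at day 10. For 69.0% of genes the 3 lists of PC3 lay apart from the 3 of MDA-MB-231 at day 10.

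HOX, prostate and breast genes were called higher in PC3 survivors more often than lower. Of 38 HOX genes, the homeobox factors that set position along the body, 26 were higher and 3 lower, with a median log2 difference of 0.80. HOX genes lie in clusters, so their windows share peaks. HOXB13, the HOX factor of prostate (chr17:48724763-48728750), had 10.5, 8.91 and 10.5 kb in the PC3 day 10 lists, against 0.548, 1.08 and 1.17 kb in the MDA-MB-231 day 10 lists. The lines did not overlap, and the difference of 2.89 ± 0.20 (log2 ± SE) had an adjusted p of 2.7e-09 (limma). Of 18 prostate genes 10 were higher and 2 lower, with a median of 0.35. Of 21 breast genes 8 were higher in PC3 and 3 lower, with a median of 0.26. TBX3, a T-box factor of mammary development, had 6.89, 5.64 and 6.08 kb in PC3 survivors and 0.404, 0.412 and 0.917 kb in MDA-MB-231 survivors (2.67 ± 0.15, adjusted p = 2.9e-10, limma).

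Epithelial genes were called higher in PC3 more often than lower, while mesenchymal genes were called in both directions at shares near those of all genes. Of 37 epithelial genes 13 were higher and 6 lower in PC3 survivors, with a median of 0.05 against -0.25 over all genes. GRHL2, a factor that keeps epithelial identity, had 14.8, 15.7 and 14.9 kb in PC3 and 5.18, 5.25 and 5.74 kb in MDA-MB-231 at day 10 (1.41 ± 0.10, adjusted p = 1.8e-09, limma). It lies on 8q, the arm with the largest PC3 excess, and relative to its arm the difference was 0.77. PKP1, a plakophilin of desmosomes, had 21.7, 20.8 and 28.5 kb in PC3 survivors and 7.98, 9.00 and 8.10 kb in MDA-MB-231 survivors. Of 34 mesenchymal genes 7 were higher and 10 lower in PC3, with a median of -0.25. VIM, the intermediate filament of mesenchymal cells, had 2.65, 2.74 and 2.70 kb in PC3 and 5.41, 5.60 and 6.12 kb in MDA-MB-231 at day 10, without overlap (-0.96 ± 0.07, adjusted p = 7.2e-09, limma). AXL, a receptor tyrosine kinase, had 6.60, 6.82 and 7.39 kb in PC3 survivors and 17.0, 16.0 and 14.2 kb in MDA-MB-231 survivors, again without overlap. Of all 41 receptor tyrosine kinases 11 were higher and 2 lower in PC3, among the lower FGFR3 with 0.258, 0.207 and 0.886 kb in PC3 survivors and 6.04, 5.64 and 5.74 kb in MDA-MB-231 survivors. ALK, a kinase receptor of the nervous system, was among the higher, with 27.9, 27.6 and 26.7 kb in PC3 and 6.54, 5.29 and 6.00 kb in MDA-MB-231.

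Neuronal adhesion and channel genes, which are long and mostly silent outside nerve cells, were higher in PC3 survivors in 17 of 28 cases and lower in 3, with a median of 0.71. NRXN3, a presynaptic adhesion molecule, had 43.3, 43.1 and 49.5 kb in the PC3 day 10 lists and 8.51, 7.02 and 8.20 kb in the MDA-MB-231 day 10 lists, against 23.5, 24.8 and 25.9 kb in PC3 controls and at most 3.57 kb in any MDA-MB-231 control. Both lines had more at day 10 than in control, and the lines lay apart at both times (2.45 ± 0.11 at day 10, adjusted p = 1.8e-11, limma). Of 13 neuroendocrine genes 2 were higher and 4 lower. Secreted inflammatory and matrix-degrading factors were higher in 16 of 31 cases and lower in 3, with a median of 0.35. Urokinase and its receptor were split between the lines. PLAU, the protease urokinase, had 16.1, 14.5 and 15.8 kb in PC3 survivors and 7.28, 8.51 and 7.57 kb in MDA-MB-231 survivors (0.94 ± 0.07, adjusted p = 8.7e-09, limma). PLAUR, its receptor, had 2.59, 2.75 and 3.17 kb in PC3 and 6.28, 6.55 and 6.00 kb in MDA-MB-231 (-1.03 ± 0.11, adjusted p = 2.5e-07, limma). The protease had more covered length in PC3 and its receptor in MDA-MB-231, each without overlap. Neither difference was taken relative to the chromosome arm.

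Chromatin modifiers were called lower in PC3 survivors more often than all genes tested, as was the housekeeping list, and genes of the cell cycle and of p53 were not. Of 41 chromatin modifiers 3 were higher and 18 lower in PC3 survivors, with a median of -0.56, or -0.26 under median-of-ratios scaling. RNF2, the ubiquitin ligase that acts with BMI1, had 0.294, 0.274 and 0.275 kb in PC3 and 1.64, 1.71 and 1.52 kb in MDA-MB-231 at day 10, without overlap (-1.44 ± 0.10, adjusted p = 1.8e-09, limma). EHMT1, a histone H3 methyltransferase, had 2.87, 2.93 and 2.76 kb in PC3 and 8.00, 7.47 and 7.57 kb in MDA-MB-231, again without overlap. Of 31 genes of crosslink repair 3 were higher and 11 lower, with a median of -0.28, close to that of all genes. BRCA1, of recombination repair, had 2.08, 2.52 and 2.91 kb in PC3 and 5.50, 5.59 and 5.56 kb in MDA-MB-231 at day 10. Of 33 genes of mitosis 2 were higher and 8 lower, of 20 nuclear envelope genes 2 were higher and 6 lower, of 24 p53 targets 4 were higher and 5 lower, and of 27 genes of drug transport and metallothioneins 5 were higher and 9 lower. Of 26 interferon and nucleic acid sensing genes 1 was higher and 6 lower. CGAS, the sensor that makes cyclic GMP-AMP from cytosolic DNA, had 1.29, 1.54 and 1.48 kb in PC3 and 4.30, 4.13 and 3.66 kb in MDA-MB-231, without overlap (-1.22 ± 0.10, adjusted p = 2.3e-08, limma). Of 20 AP-1 and MAF genes 2 were higher and 7 lower. FOSB, an AP-1 subunit, had 2.91, 3.03 and 2.65 kb in PC3 survivors and 6.34, 6.29 and 5.41 kb in MDA-MB-231 survivors (-0.95 ± 0.09, adjusted p = 1.1e-07, limma). SYNE2, a nesprin that ties the nucleus to the cytoskeleton, went against its nuclear envelope list, with 22.3, 25.6 and 22.4 kb in PC3 and 7.74, 8.74 and 8.95 kb in MDA-MB-231. Of 18 YAP and TEAD targets 5 were higher and 4 lower, of 16 blood cell markers 3 were higher and 5 lower, of 13 endothelial markers 3 were higher and 1 lower, and of 16 housekeeping genes 2 were higher and 7 lower.

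Among the largest differences outside the lists, KCNB2, a potassium channel on 8q, had 12.5, 9.98 and 12.0 kb in the PC3 day 10 lists and 1.01, 0.355 and 0.915 kb in the MDA-MB-231 day 10 lists. Other such genes had no peak in 1 line. SH3GL2, an endophilin of synaptic vesicles, had 6.49, 6.45 and 5.70 kb in PC3 and was listed at 0 in the 3 MDA-MB-231 day 10 lists. TSPAN14, a tetraspanin, was listed at 0 in the 3 PC3 day 10 lists and had 12.8, 14.4 and 12.6 kb in MDA-MB-231. RNLS, renalase, was likewise at 0 in PC3 and had 6.48, 8.06 and 7.63 kb in MDA-MB-231. No fold is given where a line is at 0.

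The gap between the lines was wider at day 10 than in control for 1254 genes (7.46%) and narrower for 1499 (8.92%), by limma's test of the difference of the gaps. Without scaling 756 were wider, and without MDA-MB-231 control replicate 3 there were 786. With the 50000 highest-area peaks the balance turned, to 1485 wider and 725 narrower, of which 460 and 414 were called the same way with all peaks. Among the wider gaps PC3 differed from its own control in 1023 genes, 777 of them lower at day 10, and MDA-MB-231 in 339. Among the narrower gaps MDA-MB-231 differed from its control in 938 genes, 642 of them higher, and PC3 in 774. The gap turned sign in 422 of the wider and 445 of the narrower genes.

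At several genes with a narrower gap, PC3 had far more covered length before treatment, and MDA-MB-231 survivors had more than MDA-MB-231 controls. Whether the peaks of MDA-MB-231 survivors lay at the same positions as those of PC3 was not tested. MACROD2, a mono-ADP-ribose hydrolase gene, had 49.2, 56.5 and 45.4 kb in the PC3 day 10 lists and 5.08, 5.87 and 8.37 kb in the MDA-MB-231 day 10 lists, against 49.3, 58.8 and 50.2 kb in PC3 controls and 0.524, 0.507 and 0.466 kb in MDA-MB-231 controls. PC3 lists overlapped between the times, while the MDA-MB-231 day 10 lists all lay above the controls (-2.84 ± 0.23 for the change of the gap, adjusted p = 8.9e-07, limma). The metalloproteinases MMP10 and MMP1 and the keratin KRT18 were singled out after their values were seen. MMP10, a matrix metalloproteinase, had 3.65, 4.27 and 4.21 kb in PC3 and 1.86, 1.56 and 1.63 kb in MDA-MB-231 at day 10, against 4.32, 4.35 and 4.39 kb in PC3 controls and 0.302, 0 and 0.224 kb in MDA-MB-231 controls (-1.82 ± 0.18, adjusted p = 6.1e-06). MMP1, the collagenase beside it, whose window overlaps that of MMP10, had a change of the gap of -1.54 ± 0.24 (adjusted p = 0.00045), also with MDA-MB-231 higher at day 10. Of the secretory list 9 of 31 gaps were narrower and 2 wider, but the balance was 6 and 3 without scaling, 5 and 5 under median-of-ratios scaling and 4 and 4 for the 50000 highest-area peaks. Of the neuronal list 9 of 28 were narrower and 3 wider, or 4 and 2 without scaling, 7 and 2 under median-of-ratios scaling and 3 and 1 for the 50000 highest-area peaks. KLK4, a prostate kallikrein, had 3.17, 3.28 and 3.69 kb in PC3 and 1.41, 1.61 and 1.38 kb in MDA-MB-231 at day 10, against 3.58, 3.38 and 3.47 kb in PC3 controls and 0.383, 0.295 and 0.321 kb in MDA-MB-231 controls (-1.28 ± 0.13, adjusted p = 1.1e-05, limma). With the 50000 highest-area peaks the change at KLK4 was -0.29 and not called (adjusted p = 0.43, limma). Of the HOX list 5 of 38 gaps were narrower and 0 wider, or 1 and 0 without scaling.

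At other narrowed genes PC3 survivors had peaks that PC3 controls nearly lacked. OPCML, a neuronal adhesion protein, had 19.6, 12.3 and 23.3 kb in the PC3 day 10 lists and 17.1, 13.8 and 12.6 kb in the MDA-MB-231 day 10 lists, which overlapped, against 0.731, 0.231 and 0.428 kb in PC3 controls and 6.87, 5.03 and 5.03 kb in MDA-MB-231 controls. The day 10 difference was 0.30 ± 0.20 (adjusted p = 0.2) and the change of the gap 2.99 ± 0.28 (adjusted p = 4.3e-06, limma). Without scaling, or without PC3 day 10 replicate 2, the day 10 difference was 0.59 or 0.55 and called (adjusted p = 0.013 and 0.014, limma). TMEM132D had 7.14, 4.76 and 6.39 kb in PC3 and 20.6, 21.4 and 23.7 kb in MDA-MB-231 at day 10, against 0, 0.335 and 0 kb in PC3 controls and 17.3, 17.4 and 18.2 kb in MDA-MB-231 controls. GFRA1, a receptor for GDNF, had 2.29, 1.66 and 2.57 kb in PC3 and 7.86, 10.2 and 11.5 kb in MDA-MB-231 at day 10, and the 3 PC3 controls were listed at 0. Both still had more covered length in MDA-MB-231 at day 10. At TMEM132D the change of the gap was 3.16 ± 0.31 (adjusted p = 4.7e-06), but 0.97 and not called (adjusted p = 0.17, limma) with the 50000 highest-area peaks.

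Widening included loss in PC3 survivors. BMI1 had 0.841, 0.702 and 0.667 kb in the PC3 day 10 lists and 4.77, 5.32 and 4.56 kb in the MDA-MB-231 day 10 lists, against 3.70, 3.87 and 4.54 kb in PC3 controls and 6.96, 7.82 and 6.37 kb in MDA-MB-231 controls, with no overlap between the lines at either time. The gap changed by -1.39 ± 0.19 (adjusted p = 0.00015, limma), or by -0.38 (adjusted p = 0.38) where the window reached only 2 kb beyond the gene. CHEK2, a checkpoint kinase, had 2.49, 2.61 and 2.15 kb in PC3 and 4.80, 4.25 and 4.35 kb in MDA-MB-231 at day 10, whereas PC3 controls had 4.74, 4.44 and 4.43 kb and MDA-MB-231 controls 4.67, 5.25 and 4.88 kb. The lines overlapped in control and lay apart at day 10 (-0.66 ± 0.11, adjusted p = 0.0006, limma), though the change was not called without scaling (-0.44, adjusted p = 0.086). Of the 41 chromatin modifiers 7 gaps were wider and 2 narrower, but 1 and 2 without scaling, 2 and 3 under median-of-ratios scaling and 10 and 1 for the 50000 highest-area peaks. The gap of KRT18, an epithelial keratin, turned its sign at nearly the same size and so counts as narrower, with 5.35, 4.89 and 4.63 kb in PC3 survivors and 3.30, 3.33 and 3.37 kb in MDA-MB-231 survivors, against 2.91, 2.38 and 3.20 kb in PC3 controls and 4.02, 3.78 and 5.41 kb in MDA-MB-231 controls. The line with more covered length at KRT18 was PC3 at day 10 and MDA-MB-231 in control (1.06 ± 0.16, adjusted p = 0.00031, limma).

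**Figure D4:**
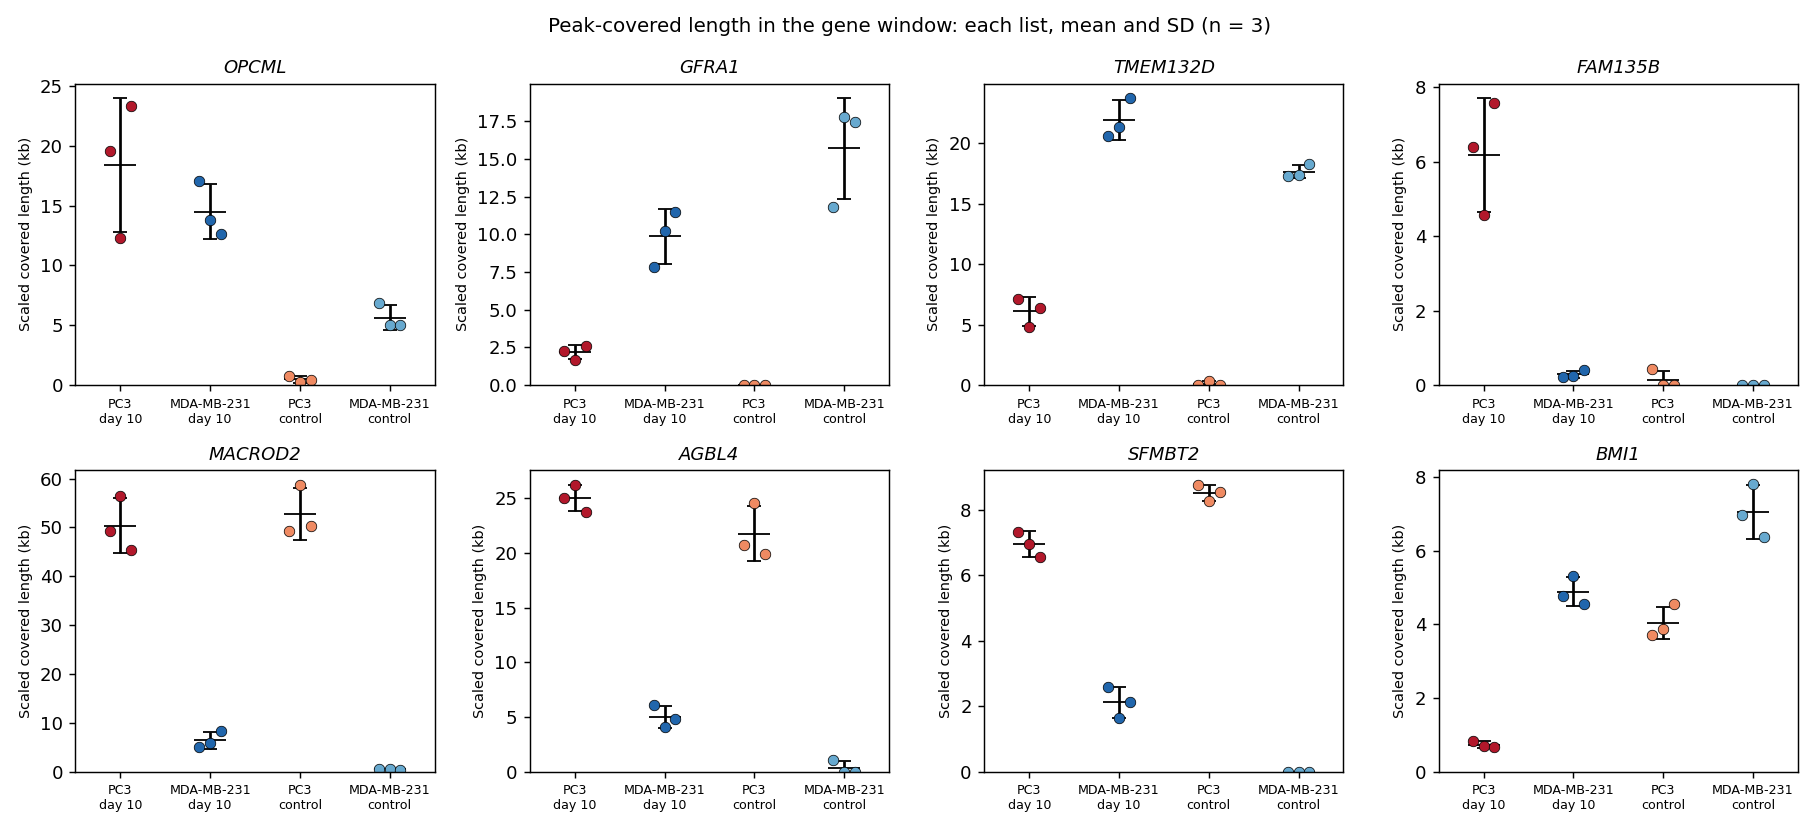
Scaled peak-covered length (kb, y axis) in each day 10 and control list for 8 genes with a changed gap between the lines, with 1 point a list, 3 lists a group and lines at the mean and SD. MACROD2 has more covered length in MDA-MB-231 survivors than in MDA-MB-231 controls, and BMI1 less in PC3 survivors than in PC3 controls.

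By chromosome arm, most differences between the lines had the same sign at day 10 as in control. On 33 of 41 arms the 3 PC3 shares of covered length lay apart from the 3 MDA-MB-231 shares, with PC3 higher on 13 and lower on 20, and 34 arms had the same sign as in control. Arm 8q held 5.68 ± 0.21% of covered length in PC3 survivors and 2.79 ± 0.07% in MDA-MB-231 survivors (SD, n = 3 each), a log2 ratio of 1.03, against 1.01 in control. Arm 17p held 0.77 ± 0.01% in PC3 and 1.40 ± 0.04% in MDA-MB-231 at day 10, a ratio of -0.86, and 9q had a ratio of -0.84. Arm 18q changed most, with a ratio of 0.10 at day 10 and 0.59 in control. Both lines carry gains and losses of chromosome arms, and copy number was not measured in these samples. A difference of a gene and of its arm cannot be told apart by these counts alone. Except for GRHL2, the log2 differences of single genes above were not taken relative to the arm. Relative to the arm's median, 5090 genes were higher and 4954 lower in PC3 at day 10.

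**Figure D5:**
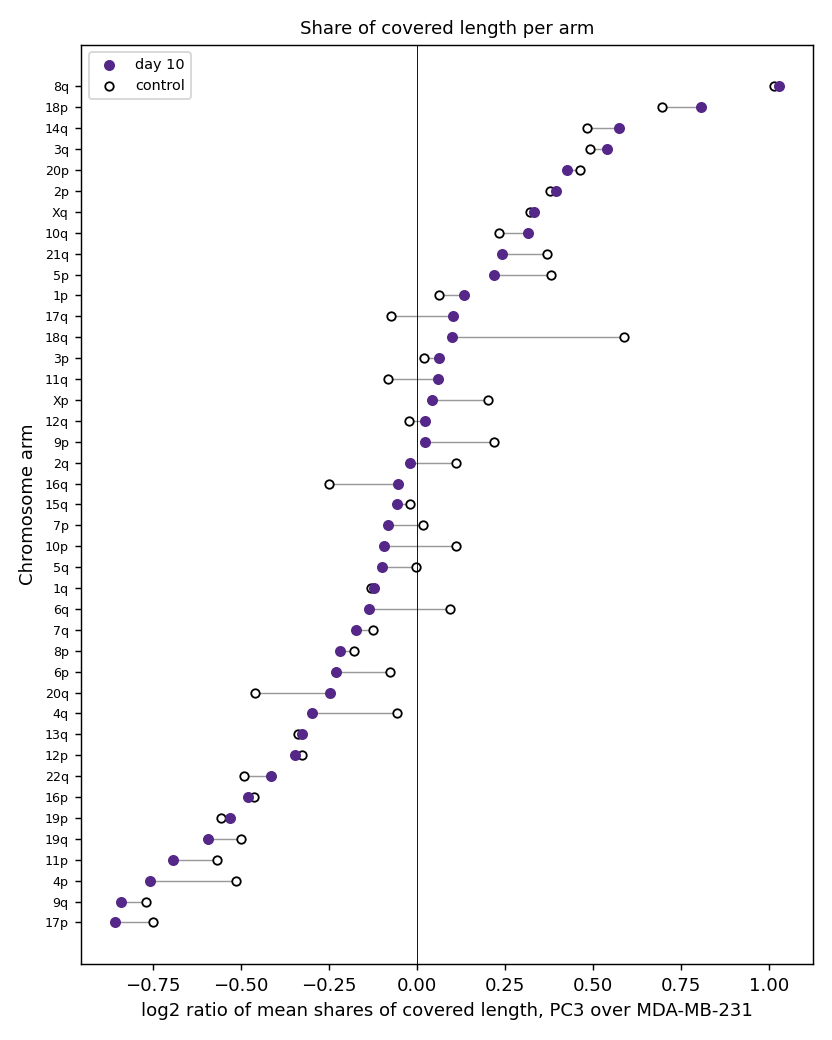
Log2 ratio of the share of covered length, PC3 over MDA-MB-231, for each of 41 chromosome arms at day 10 and in control. Arm 8q has the highest ratio (1.03) and 17p the lowest (-0.86) at day 10, and most arms keep their side of 0.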

How the data were processed

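Bulk ATAC-seq peak lists of human PC3 and MDA-MB-231 cells (cisplatin survivors 1 and 10 days after drug removal, and untreated) were analysed, 3 biological replicates a group. Per the submitters' processing notes, the tools were Genrich 0.6.2, SAMtools 1.6, Bowtie2 2.3.5.1, FastQC 0.12.1, Picard and R 4.4.1, with the build hg38/GRCh38. How the 3 experimental replicates were joined into 1 list was not given in the sources used here. The deposited area score of each peak (lowest 200) served only to rank peaks within a list, and the authors' deposited −log10 p-value was not used further. Read counts are absent from the lists, which leaves the depth unknown and allows no counting interval.

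Peak-covered length per gene (RefSeq table, GRCh38.p14, body and 10 kb each side) was scaled so that every list had the mean total, and taken as log2 after adding 500 bp. Genes that reached 500 bp in 3 or more lists (16813 of 19970 protein-coding genes) entered 1 limma fit with a variance trend over all 18 lists (12 residual degrees of freedom), tested on simulated data, with Benjamini-Hochberg adjustment at 0.05. The gap between the lines is PC3 minus MDA-MB-231, and its change is the day 10 gap minus the control gap. It is wider where the absolute gap is larger at day 10. Regions were peaks merged over the 18 lists and counted as present from 1 bp of overlap. Measures of whole lists were tested by two-sided exact permutation. The p-values measure only the spread between these lists, since the labels do not say whether replicates came from separate treatments. The exception is the exact permutation of changes between the times, whose p-values also reflect changes within each line. A few genes of the RefSeq table have coordinates of alternative loci, and stretches that rest on them were left out, as was 1 further deletion marker, not analysed here.

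The named genes were the 10 with the largest difference in each direction and the 10 with the largest wider and narrower gap, up to 4 genes of each of 22 gene lists by p, and neighbours of the 10 widest new regions, of which a selection is given, and genes outside this rule are said to be so. Promoter windows (250 bases before to 50 after each start) and their genes were added after the files were seen. The comparison, the gene lists and the members were chosen with earlier results of these data known. Alternatives changed the peaks used, the window, the added length, the filter, the scaling, the arm correction, the samples in the fit, the replicate block and single replicates. Python 3.11.15, NumPy 2.4.6, pandas 2.3.3, matplotlib 3.10.9, R 4.3.3 and limma 3.58.1 were used.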

Additional observations from a re-analysis of the deposited data

Results flagged for a closer look

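The difference between the lines changed between day 10 and control by limma's interaction test at the genes below, and each value is the day 10 gap minus the control gap in log2 units. Wider gaps with PC3 more covered were FAM135B (2.77), MMP23B (2.07), PRKAG3 (1.99), PREX2 (1.98), CST5 (1.93) and SLC25A47 (1.89). Wider gaps with MDA-MB-231 more covered were NCR2 (-2.28), SCART1 (-2.12), CTBP1 (-2.05), ZDHHC2 (-1.96) and, outside the ranking, BMI1 (-1.39) and CHEK2 (-0.66). Narrower gaps were TMEM132D (3.16), GFRA1 (3.04), IL17C (3.01), OPCML (2.99), MACROD2 (-2.84), EPS8L1 (2.78), AGBL4 (-2.68), SLC16A9 (-2.67), SFMBT2 (-2.65) and DRGX (-2.63) and, outside the ranking, MMP10 (-1.82), MMP1 (-1.54), KLK4 (-1.28) and KRT18 (1.06), whose gap turned sign. Where a group is listed at 0, as SFMBT2 in MDA-MB-231 controls and GFRA1 in PC3 controls, the value depends on the 500 bp added before the log and is no bound. CTBP1, a transcriptional corepressor, had 0.373, 0.431 and 0 kb in the PC3 day 10 lists and 8.73, 5.61 and 4.47 kb in the MDA-MB-231 day 10 lists.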

How the results depend on the processing

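With the 50000 highest-area peaks, the change in gene distance turned to 0.11 (p = 0.145 in the exact permutation test), PC3-only day 10 regions fell to 11482, shared ones to 24262 and narrower gaps to 725. With the upper 50% by area these were 0.0014, 18845, 31909 and 838, and MDA-MB-231-only regions 8777. Shared regions were 30690 where 50% of a region had to be covered. Genes higher in PC3 numbered 5478 under median-of-ratios scaling and 5090 relative to the arm, and lower ones 5109 and 4954, or 4616 without scaling, where wider gaps were 756. Leaving out 1 list gave 786 to 1332 wider gaps, with 786 without MDA-MB-231 control replicate 3. The cause was not tested. For values given by setting, signs turned for DLL3 (0.072) and VWF (0.22) relative to the arm, for MMP23B (-0.49) with 2 kb flanks and for ZDHHC2 (0.08) with the upper 50%. Among all named genes called at day 10, 3 of 142 turned sign relative to the arm (also ACCSL, 0.20) and 4 of the 138 measured with the 50000 highest-area peaks (PRKAG3, -0.33, SLC25A47, -0.02, FAM168B, -0.68, and SIPA1, 0.02). With the replicate block there were 3368 higher and 8379 lower genes, 1487 wider and 1740 narrower gaps, and replicate numbers did not pair the day 10 lists (correlations 0.080, 0.043 and -0.180). The other values for summary results kept direction and side of the threshold in 174 comparisons, and 2840 of those for named genes did so, while 48 lost their call. Without read counts, a region missing from a list may lie just under the caller's threshold.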

Other observations

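Some regions that only MDA-MB-231 had before treatment were shared by all 6 day 10 lists. The widest, of 9947 bp, lay at IL18BP, the soluble inhibitor of interleukin 18, and NUMA1, a spindle pole protein (chr11:71998109-72008055), and another of 4315 bp at EME1, a subunit of the MUS81 crosslink repair nuclease (chr17:50377970-50382284). Over the whole EME1 window, covered length was 4.73, 4.29 and 7.37 kb in PC3 survivors and 2.57, 3.92 and 4.41 kb in MDA-MB-231 survivors, against 2.42, 0.992 and 1.11 kb in PC3 controls and 2.83, 4.22 and 5.75 kb in MDA-MB-231 controls. The survivor lists of the lines overlapped there. These regions were named for their width, after the data were seen, and carry no test.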
